A study of Rattus norvegicus with 16 samples.

Results

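The question here was whether expression in the rat renal cortex changed alike with dietary fructose on both base diets. For each gene the fructose change on the high-salt diet (FHS minus CHS) was set against the fructose change on the normal-salt diet (FNS minus CNS), and the difference between these changes, called the interaction below, was examined across all 16 rats of the series. A value above 0 means that the change with fructose was more positive on the high-salt diet, and a value below 0 that it was more negative there. By arithmetic the same number is the base-diet difference with fructose minus the base-diet difference with water.

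The animals were male Sprague Dawley rats, 7 weeks old, with 4 rats in each of 4 groups. CNS rats drank water and ate standard chow, FNS rats received 20% fructose with the same chow, CHS rats drank water and ate a chow with 4% NaCl, and FHS rats received 20% fructose with that high-salt chow, for 7 days in every group. By the study's methods the 2 chows came from different makers and differed in protein, carbohydrate and energy as well as in salt, so salt and the rest of the chow cannot be told apart. Rats were housed in pairs, and which rats shared a cage is not given in the sources used here. Total RNA of the superficial cortex of 1 kidney per rat was hybridised to 1 array, rats are numbered 1 to 16 as in the labels, and every value below is a log2 signal on which a step of 1 is a doubling.

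The cortex is made up largely of proximal tubule, the segment that takes up fructose by apical transporters and breaks it down through ketohexokinase, and that also makes glucose, reabsorbs phosphate and amino acids, and digests filtered protein in its lysosomes. Between the tubules lie capillaries, a network of resident macrophages that present antigen on MHC class II molecules, and a small population of dividing cells. Most kidney cells carry a circadian clock, whose phase is known to follow feeding. Bulk tissue holds all of these together, and fewer cells of a type and less RNA per cell cannot be told apart in such samples.

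The array carried 36685 rows, of which 18511 had 1 gene symbol, giving 18166 genes after the brightest row was kept for each symbol. Array medians lay between 5.26 and 5.29 in CNS rats, 5.27 and 5.33 in FNS rats, 5.25 and 5.34 in CHS rats, and 5.33 and 5.44 in FHS rats, with the highest in rat 14, an FHS animal whose array also received the lowest weight (0.406) when weights were estimated. The arrays correlated with each other at 0.968 to 0.99 over all rows, a description across rows of arrays normalized together. Slc34a1, the proximal phosphate transporter, had a mean signal of 13 and Lrp2, the endocytic receptor megalin, of 12.8, both far above the array medians, while the T cell marker Cd3e, the B cell marker Ms4a1 and the neutrophil marker S100a8 had means of 3.74, 4.03 and 3.50, below them.

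No gene passed the test of the interaction. With limma and Benjamini-Hochberg adjustment over all rows, 0 of 36685 rows had an adjusted p under 0.05 (0.0% called), the lowest adjusted p being 0.599, and 0 of 18166 genes did. At an unadjusted p under 0.05 there were 2235 rows (6.09%), 1470 with a positive (4.01%) and 765 with a negative interaction (2.09%), and 869 genes (4.78%), 525 with a positive interaction (2.89%) and 344 with a negative one (1.89%). Among the 11415 genes above the median brightness there were 216 positive (1.89%) and 267 negative (2.34%). What follows is therefore a description of the genes and gene groups at the edges of this comparison, with the value in each rat, and the genes named first were picked because their p was smallest.

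The count of fructose changes at an unadjusted p under 0.05 was 599 genes (3.3%) on the normal-salt diet and 1646 (9.06%) on the high-salt diet, while no gene passed the adjusted threshold on either. Over all genes 59.0% had the larger absolute change on the high-salt diet, and 47.8% had changes of opposite sign on the 2 diets. Of the 344 genes with a negative interaction at an unadjusted p under 0.05, 297 had a higher mean with fructose on normal salt and a lower one on high salt, 46 were lower on both and 1 was higher on both. Of the 525 with a positive one, 482 had the reverse, a lower mean on normal salt and a higher one on high salt. These sign counts follow in part from choosing genes by the difference itself and are given without a test. In the plot of both changes the picked genes lie away from the line of equal change, mostly in the quadrants where the signs are opposite.

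**Figure D1:**
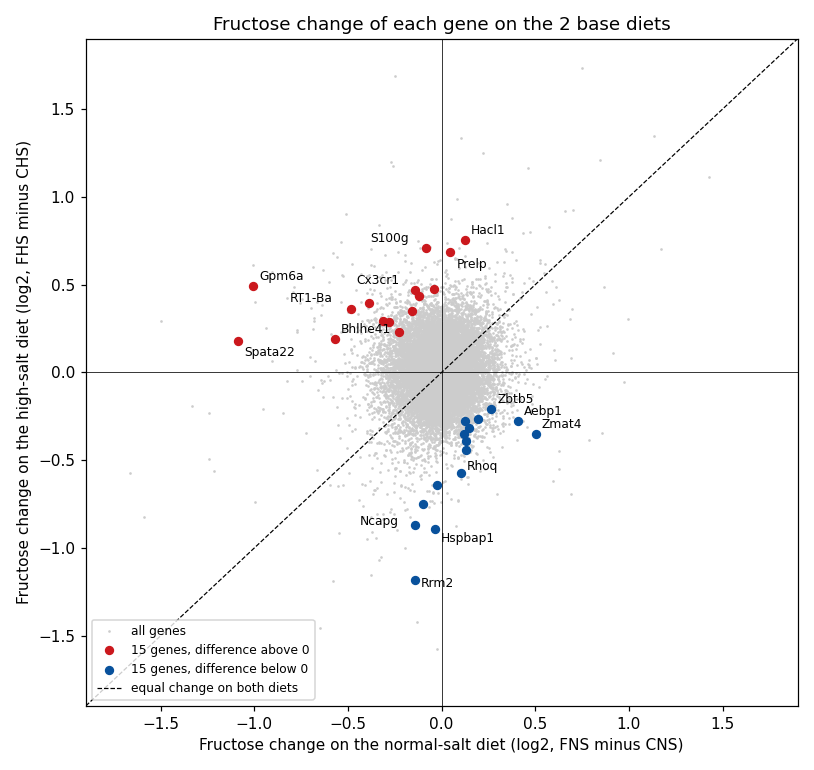
Each grey point is 1 of 18166 genes, with its mean fructose change on the normal-salt diet on the x axis and on the high-salt diet on the y axis (both log2, 4 rats against 4). Red and blue points are the 15 genes each way, above the median brightness, with the smallest interaction p; Gpm6a and Spata22 had changes of -1.01 and -1.08 on normal salt, and Rrm2 of -1.19 on high salt.

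The widest positive interaction among the brighter genes belonged to Gpm6a, which encodes a membrane glycoprotein known from the outgrowth of neurites. Its signal was 8.89, 8.71, 9.30 and 9.0 in the CNS rats and 7.69, 8.30, 7.93 and 7.94 in the FNS rats. On the high-salt diet it was 8.07, 9.02, 9.15 and 8.45 in CHS rats and 9.10, 9.07, 9.36 and 9.13 in FHS rats. All FNS rats lay below all CNS rats, whereas the CHS rats were scattered and overlapped the FHS rats. The fructose change was -1.01 on normal salt and 0.49 on high salt, an interaction of 1.5 ± 0.29 (SE, 4 rats per group, limma adjusted p = 0.599).

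Spata22, known for its part in meiotic recombination in the testis, behaved alike on the normal-salt diet. It stood at 8.85, 8.22, 8.96 and 8.83 in CNS rats against 8.10, 7.32, 7.69 and 7.41 in FNS rats, without overlap. The CHS rats had 8.27, 8.73, 8.29 and 8.56 and the FHS rats 8.59, 8.27, 8.95 and 8.74, so that these groups overlapped. The interaction was 1.26 ± 0.28 (SE, limma adjusted p = 0.599).

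A different shape was seen for genes whose fructose change lay mainly on the high-salt diet. Hacl1, a peroxisomal lyase that shortens hydroxylated and branched fatty acids, had signals of 8.95, 8.86, 9.17 and 8.78 in CHS rats and 9.45, 9.93, 9.80 and 9.58 in FHS rats. In CNS rats it had 8.83, 9.05, 8.98 and 8.82, and in FNS rats 8.97, 9.11, 9.29 and 8.81. Only the FHS rats stood apart, with a change of 0.75 on high salt against 0.12 on normal salt (interaction 0.63 ± 0.18, limma adjusted p = 0.768). S100g, the vitamin D-dependent calcium-binding protein calbindin-D9k of the distal nephron, had 6.12, 5.91, 6.27 and 6.21 in CHS rats and 6.56, 6.79, 7.19 and 6.82 in FHS rats. Its CNS rats (6.51, 6.16, 6.15 and 6.54) and FNS rats (6.11, 6.20, 6.64 and 6.06) overlapped, and the interaction was 0.80 ± 0.22 (limma adjusted p = 0.761). Prelp, a leucine-rich-repeat proteoglycan of the extracellular matrix, followed the same course, from 7.57 to 7.92 in CHS rats up to 8.21 to 8.69 in FHS rats, with changes of 0.68 on high salt and 0.05 on normal salt.

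In another set of genes the CHS mean was the lowest of the 4 and the diets lay closer together with fructose than with water. Cx3cr1, the fractalkine receptor of monocytes and resident macrophages, had 7.88, 7.98, 7.92 and 7.81 in CNS rats and 7.78, 7.70, 7.63 and 7.91 in FNS rats. It had 7.08, 7.01, 7.17 and 7.14 in CHS rats and 7.71, 7.53, 7.64 and 7.41 in FHS rats. The CHS rats were the lowest of all 16, below every FHS rat. Between the diets Cx3cr1 differed by -0.79 with water and by -0.18 with fructose, an interaction of 0.61 ± 0.13 (limma adjusted p = 0.599). Arhgap15, a GTPase-activating protein for Rac, was 0.61 lower on high salt with water and level between diets with fructose, at 5.39 to 5.67 in CHS rats against 5.73 to 5.87 in FHS rats, with fructose changes of -0.31 on normal salt and 0.29 on high salt. Myh11, the smooth muscle myosin heavy chain, was 6.47 to 6.74 in CHS rats, 6.69 to 7.14 in FHS rats, 7.10 to 7.35 in CNS rats and 6.91 to 7.01 in FNS rats, with changes of -0.28 and 0.29. Mrgprb2, whose mouse counterpart is a receptor of mast cells, had 5.18 to 5.95 in CHS rats and 6.66 to 7.02 in CNS rats, with 5.71 to 6.08 in FHS rats and 6.21 to 6.58 in FNS rats, and changes of -0.39 and 0.39. For Myh11 and Mrgprb2 the CNS and FNS rats did not overlap, whereas the CHS and FHS rats did.

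The other genes among the 15 brighter ones with positive interactions were Bhlhe41, Pcdh19, RT1-Ba, Rsrp1, Pard6g and Nicol1. Of all 15, 13 had fructose changes of opposite sign, 10 had the larger change on high salt, 7 did not overlap between CNS and FNS rats and 8 did not overlap between CHS and FHS rats (3.14% and 7.49% of the genes above the median brightness, either direction). The picked genes were chosen by p, so nothing is read from these counts. Their interactions ran from 0.46 to 1.5. Without the limit on brightness the 5 of smallest p also took in Nlrp4al1 (0.78) and Dcm5 (0.58), both with signals below 4.5 in every rat, and among negative interactions Nalf2 (-0.63) and Or10j27 (-0.71).

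**Figure D2:**
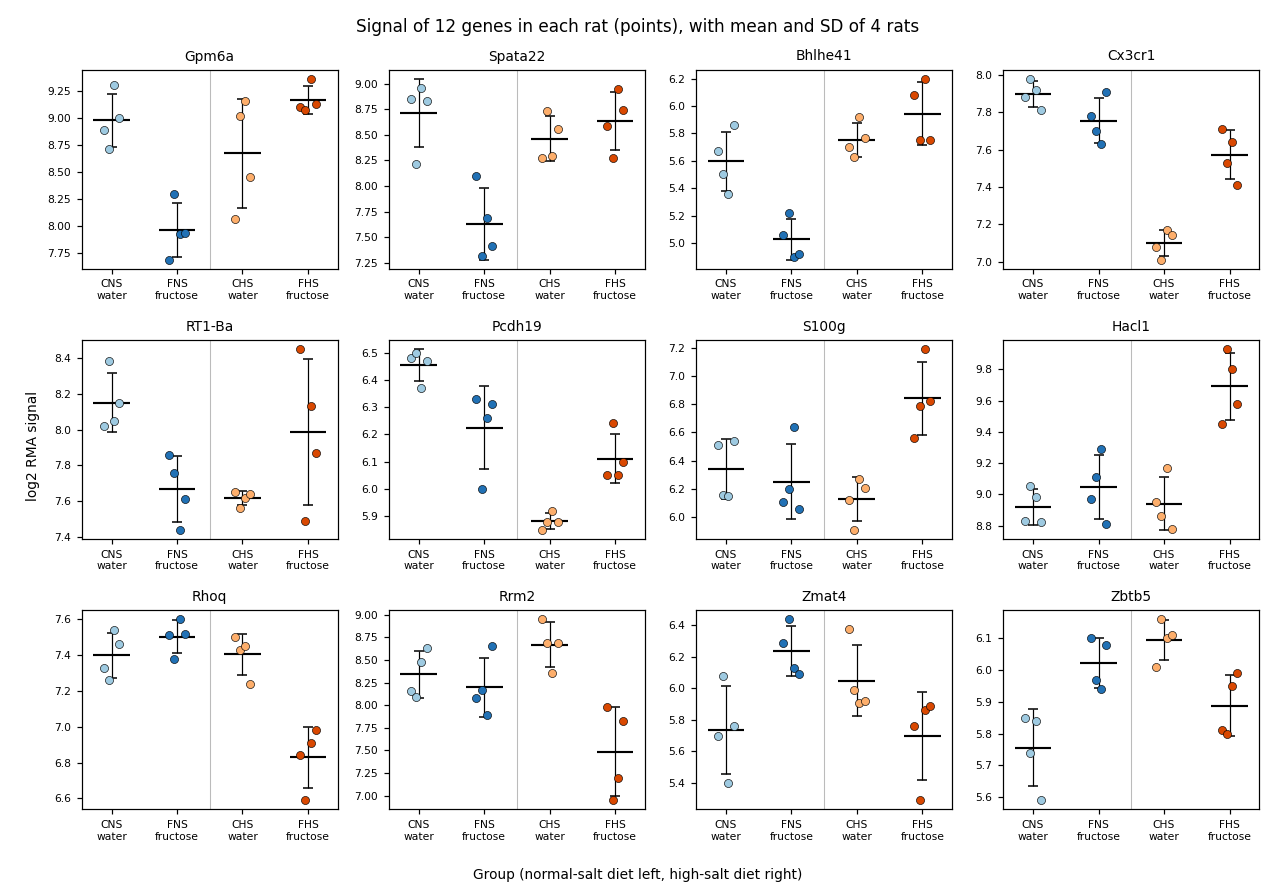
Log2 signal of 12 genes in each rat (points), with the mean (line) and SD (bars) of the 4 rats in each group; the normal-salt groups are on the left and the high-salt groups on the right of each panel. In Gpm6a, Spata22 and Bhlhe41 the FNS rats did not overlap the CNS rats, in Cx3cr1 and Pcdh19 the CHS rats were lowest, and in S100g, Hacl1, Rhoq and Rrm2 the FHS rats did not overlap the CHS rats.

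Among the genes with negative interactions the smallest p was that of Rhoq, the small GTPase TC10, known from insulin-stimulated traffic of glucose transporters in fat cells. Its signal was 7.33, 7.26, 7.54 and 7.46 in CNS rats, 7.51, 7.38, 7.60 and 7.52 in FNS rats and 7.5, 7.43, 7.45 and 7.24 in CHS rats. In FHS rats it was 6.84, 6.59, 6.91 and 6.98, below each of the other 12 rats. The change was 0.10 on normal salt and -0.58 on high salt (interaction -0.68 ± 0.15, limma adjusted p = 0.599).

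Rrm2, the subunit of ribonucleotide reductase that supplies deoxynucleotides during S phase, had the widest negative interaction of the named genes, -1.04 ± 0.32 (limma adjusted p = 0.802). It had 8.16, 8.09, 8.48 and 8.63 in CNS rats and 8.08, 8.17, 7.89 and 8.65 in FNS rats. It had 8.95, 8.69, 8.35 and 8.69 in CHS rats but 7.98, 6.95, 7.19 and 7.83 in FHS rats. The normal-salt groups overlapped widely and the high-salt groups did not overlap. A second, dimmer row with the same symbol gave -0.25 ± 0.29.

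Further genes were lower with fructose on high salt, most of them with a smaller change on normal salt. Pzp, a protease inhibitor of the alpha-2-macroglobulin family, had 11.55 to 11.60 in CHS rats and 10.51 to 11.25 in FHS rats, with changes of -0.03 on normal salt and -0.64 on high salt. Hspbap1, a protein that binds the small heat shock protein Hsp27, had 8.94 to 9.30 in CHS rats and 7.78 to 8.60 in FHS rats (interaction -0.86 ± 0.26, limma adjusted p = 0.802). It had 8.16 to 8.78 in CNS rats and 8.19 to 8.58 in FNS rats, so that the CHS rats stood above all others. Tbx2, a T-box transcription factor of the developing kidney, had 7.55 to 7.96 in CHS rats and 7.25 to 7.58 in FHS rats, which overlapped, and 8.09 to 8.47 across all normal-salt rats. Polr2m, Morf4l2, Pabpc4, Fnta and Dap, which act in transcription, chromatin, mRNA binding, protein prenylation and cell death, had interactions between -0.57 and -0.40. In Morf4l2, Pabpc4 and Fnta the CHS mean was the highest of all groups, and the FHS mean lay between the CNS and FNS means. For Aebp1, a secreted protein of collagen assembly, the larger change lay on the normal-salt diet, with 8.49 to 8.57 in CNS rats and 8.71 to 9.42 in FNS rats (interaction -0.68 ± 0.20). Of the 15 brighter genes with negative interactions 10 had opposite signs, 12 had the larger change on high salt, 3 did not overlap on normal salt and 13 did not overlap on high salt (3.14% and 7.49% of the brighter genes).

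A stricter pattern was then counted, genes whose fructose and water rats did not overlap on either diet and whose changes ran in opposite directions. It was met by 11 genes, 8 lower on normal salt and higher on high salt (0.044% of genes) and 3 the other way round (0.0165%), whereas 30 genes (0.165%) did not overlap on either diet and changed in the same direction on both. Over all rows the crossed pattern was met by 16 (0.0436%) and 7 (0.0191%). The crossed genes above the median brightness were Pcdh19, Akip1 and Csrnp3 in the first direction and Zmat4, Zbtb5 and Dnajb4 in the second. Pcdh19, an adhesion protein of the protocadherin family, had 6.48, 6.50, 6.37 and 6.47 in CNS rats, 6.33, 6.0, 6.26 and 6.31 in FNS rats, 5.85, 5.88, 5.92 and 5.88 in CHS rats and 6.05, 6.24, 6.05 and 6.10 in FHS rats. Its changes were thus -0.23 and 0.23, equal in size. The spread was small among CNS and CHS rats and wider among FNS rats, and the interaction was 0.38 without rat 6. Zmat4, a zinc finger protein, had 5.70, 6.08, 5.40 and 5.76 in CNS rats, 6.29, 6.44, 6.13 and 6.09 in FNS rats, 6.38, 5.99, 5.91 and 5.92 in CHS rats and 5.76, 5.29, 5.86 and 5.89 in FHS rats. The nearest rats of its groups were 0.01 apart on normal salt and 0.02 apart on high salt. Zbtb5, a zinc finger repressor, had changes of 0.26 and -0.21. Dnajb4, a heat shock protein 40 cochaperone, owed its lower FHS mean largely to rat 14 (7.30 against 7.95 to 8.00 in the others), and its interaction was -0.41 with that rat and -0.24 without it. Its second, dimmer row gave 0.07 ± 0.22.

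Gene groups were described next. For each of 52 lists of pathway genes and cell type markers, the median interaction of the measured members was taken, and the count of members on either side of 0 was set beside that of all genes, whose median interaction was 0.01, with 51.4% above 0 and 48.6% below. Above the median brightness the median over genes was -0.02 and 54.9% lay below 0. The list medians ran from -0.34 to 0.33, 23 below 0 and 29 above, and the 6 lists at each end are described. A list's level in a rat is the mean over its members of the log2 signal, each relative to its own mean over the 16 arrays.

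**Figure D3:**
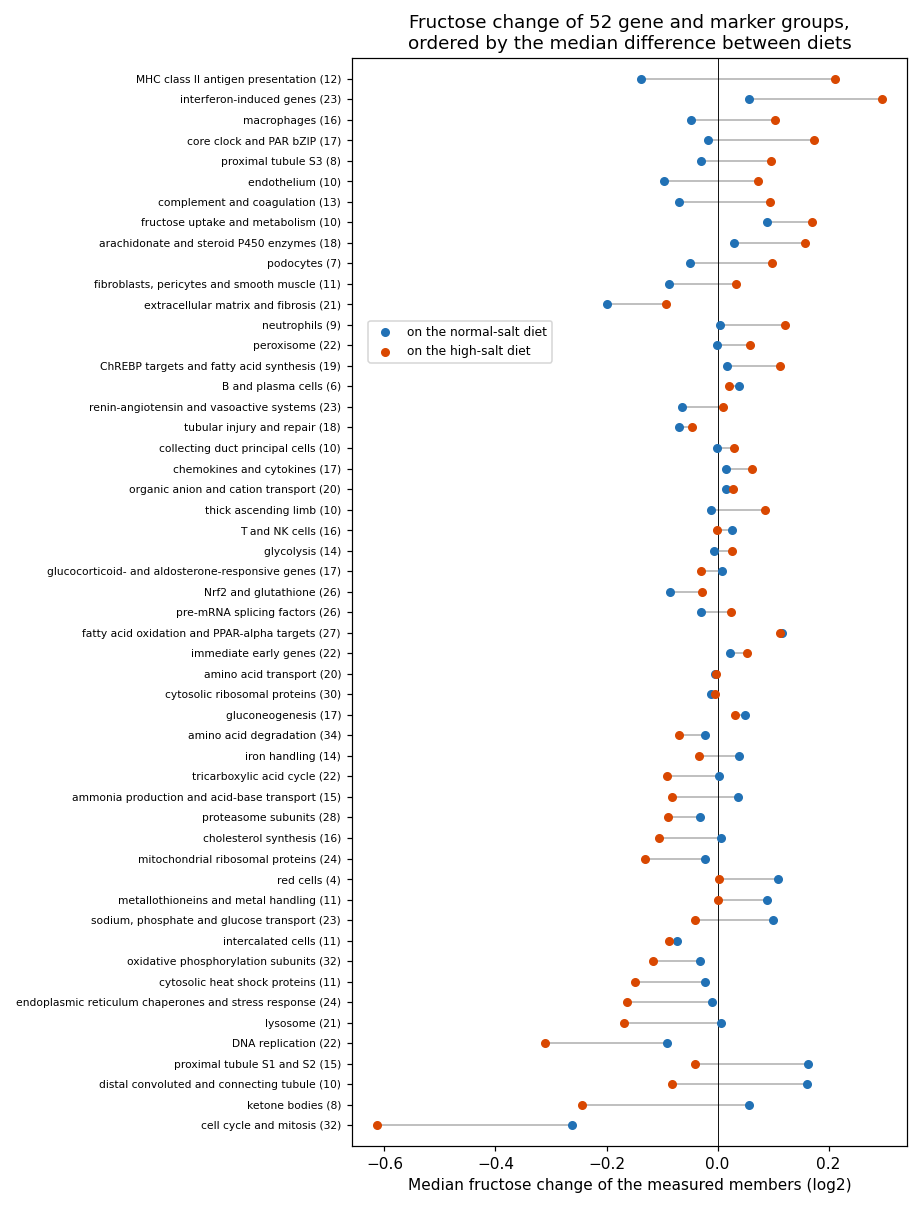
Median fructose change (log2) of the measured members of 52 gene and marker groups, on the normal-salt diet (blue) and the high-salt diet (orange), with the number of members in brackets; groups are ordered by the median interaction. Cell cycle genes lie at the bottom, with medians of -0.26 on normal salt and -0.61 on high salt, and MHC class II genes at the top.

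The lowest median was that of the cell cycle and mitosis genes. All 32 measured members had a lower mean with fructose than with water on both diets, with a median change of -0.26 on normal salt and -0.61 on high salt, so that the change had 1 sign throughout and its median was larger on high salt. The interaction was below 0 in 30 of 32 members, with a median of -0.34. At an unadjusted p under 0.05, 6 of the 32 had a negative interaction and none a positive one (1.89% and 2.89% of all genes), while for the fructose change itself it was 8 on normal salt and 28 on high salt (3.3% and 9.06% of all genes, either direction). No member had an adjusted interaction p under 0.808. The level of the group was 0.13 to 0.41 in CNS rats, -0.18 to 0.36 in FNS rats, 0.01 to 0.44 in CHS rats and -0.60 to -0.32 in FHS rats. Every FHS rat lay below every other rat, and 1 FNS rat lay among the CNS rats.

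Mki67, the proliferation marker Ki-67, had 9.48, 9.76, 9.80 and 9.53 in CNS rats, 9.26, 9.36, 9.09 and 9.91 in FNS rats, 9.53, 9.15, 9.25 and 9.17 in CHS rats and 8.36, 8.25, 8.21 and 8.70 in FHS rats (interaction -0.66 ± 0.23, limma adjusted p = 0.808). Rat 8, an FNS animal, was above all CNS rats in this gene. Pbk, a mitotic kinase, had changes of -0.32 and -1.05, Prc1, which bundles microtubules at the spindle midzone, of -0.20 and -0.78, Top2a, the DNA topoisomerase of chromosome segregation, of -0.31 and -0.83, and Ube2c, the ubiquitin-conjugating enzyme of the anaphase-promoting complex, of -0.10 and -0.49. In all 5 the CHS and FHS rats did not overlap, and in none were the CNS and FNS rats apart. Among genes above the median brightness, 7.49% did not overlap on high salt and 3.14% on normal salt, in either direction. These 5 were the members of smallest interaction p, so nothing is read from these counts. Ncapg, a condensin subunit, and Aspm, a spindle pole protein, were among the 15 genes picked by p, with FHS rats at 5.45 to 5.84 and 5.26 to 5.79 against 6.21 to 6.86 and 5.98 to 6.51 in CHS rats.

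Genes of late cell cycle phases are known to share promoter elements, a CHR element (TTTGAA) to which the DREAM and MuvB complexes bind and CCAAT boxes bound by NF-Y. In windows from 250 bases before to 50 after the RefSeq start of each gene (GRCr8), and counting both strands, TTTGAA stood in 17 of the 25 cell cycle promoters found in the table (68.0%) against 15.9% of the 14564 promoters of genes on the array, and CCAAT in 18 of 25 (72.0%) against 37.9%. Among 19 DNA replication promoters TTTGAA stood in 2 (10.5%) and CCAAT in 13 (68.4%). The 120 bases before the start are shown for 3 of the genes whose FHS rats stood apart, because they let the position of both elements be compared. Capitals mark TTTGAA or its reverse complement TTCAAA, and CCAAT or its reverse complement ATTGG. Top2a lies at chr10:84473094-84473213, Mki67 at chr1:199952594-199952713 and Ncapg at chr14:69645446-69645565, all on the minus strand of GRCr8.
Top2a: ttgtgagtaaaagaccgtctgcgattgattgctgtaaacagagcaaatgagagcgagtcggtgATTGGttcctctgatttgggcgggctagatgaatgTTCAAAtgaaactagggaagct
Mki67: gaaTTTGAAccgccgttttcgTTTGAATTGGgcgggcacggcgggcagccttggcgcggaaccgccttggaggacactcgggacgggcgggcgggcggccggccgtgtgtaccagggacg
Ncapg: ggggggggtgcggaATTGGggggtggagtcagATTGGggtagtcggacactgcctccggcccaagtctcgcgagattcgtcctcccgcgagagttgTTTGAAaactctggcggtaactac
In Top2a the CHR letters began 22 bases before the start and the CCAAT letters 57 bases before it, and in Ncapg the CHR letters began 24 bases before the start. In Mki67 the CHR and CCAAT letters overlapped by 1 base. A match of letters is a description of the sequence and does not show that a factor was bound.

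The DNA replication genes leaned the same way. Of 22 measured members 19 had an interaction below 0, with a median of -0.20, and 4 were negative at an unadjusted p under 0.05 (1.89% of all genes). On high salt all 22 had lower means with fructose, with a median of -0.31, and 13 of them at an unadjusted p under 0.05 (9.06% of all genes, either direction), against 1 on normal salt (3.3%). The level was -0.04 to 0.10 in CNS rats, -0.21 to 0.04 in FNS rats, 0.11 to 0.35 in CHS rats and -0.21 to -0.02 in FHS rats, so CHS rats stood above all others. Besides Rrm2 the members of smallest p were Cdc6, a licensing factor of replication origins (interaction -0.61 ± 0.20), Mcm4 and Mcm5, subunits of the replicative helicase (-0.48 ± 0.19 and -0.39 ± 0.19), and Pcna, the polymerase clamp (-0.40 ± 0.17). Pcna had 9.68, 9.30, 9.66 and 9.36 in CHS rats and 9.20, 8.74, 9.01 and 9.05 in FHS rats, with 9.08 to 9.33 in CNS and 9.0 to 9.26 in FNS rats.

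The MHC class II antigen presentation genes lay at the other end. Of 12 measured members 10 had an interaction above 0, with a median of 0.33, a median fructose change of -0.14 on normal salt and one of 0.21 on high salt. At an unadjusted p under 0.05 there were 4 positive and 1 negative (2.89% and 1.89% of all genes), and the lowest adjusted p was 0.761. The level of the group was -0.14 to 0.18 in CNS rats, -0.27 to -0.07 in FNS rats, -0.09 to 0.19 in CHS rats and 0.04 to 0.35 in FHS rats. FNS rats were low and FHS rats high, and each range overlapped that of its water group.

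RT1-Ba, the alpha chain of a rat class II molecule, had 8.02, 8.38, 8.05 and 8.15 in CNS rats, 7.86, 7.76, 7.44 and 7.61 in FNS rats, 7.65, 7.56, 7.62 and 7.64 in CHS rats and 8.45, 7.49, 8.13 and 7.87 in FHS rats. The CNS and FNS rats did not overlap, and rat 14 kept the FHS rats from standing clear of the CHS rats (interaction 0.85 ± 0.23, limma adjusted p = 0.761). Cd74, the invariant chain that escorts class II molecules to the endosome, had 11.70, 12.10, 11.91 and 11.94 in CNS rats, 11.77, 11.87, 11.67 and 11.47 in FNS rats, 11.57, 11.60, 11.90 and 11.78 in CHS rats and 12.24, 11.88, 11.93 and 11.97 in FHS rats (0.52 ± 0.17, adjusted p = 0.808). RT1-Da, the alpha chain of the second class II molecule, had changes of -0.35 and 0.30 (0.65 ± 0.22), and RT1-DMa, of the peptide exchanger DM, an interaction of 0.45 ± 0.20. Ifi30, a thiol reductase of the lysosome that unfolds antigens, went the other way, with -0.38 ± 0.17. RT1 genes are a multigene family, so probes of 1 member may also take up transcripts of a close relative.

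Class II promoters are known for a conserved block of X and Y boxes, the second of which holds a reversed CCAAT. The letters CTGATTGG on either strand stood in 5 of the 10 class II promoters found (50%) against 4.33% of array promoters, but also in 10 of 25 cell cycle promoters (40.0%), and CCAAT alone, which CTGATTGG contains in reverse, stood in 9 of 10 (90.0%). The 120 bases before the start are shown for RT1-Ba (chr20:4576937-4577056, plus strand of GRCr8) and RT1-Da (chr20:4515295-4515414, plus strand). Both are alpha chains with positive interactions, and both stretches held CTGATTGG. The same stretch of Cd74 and of RT1-DMa, which also had positive interactions, did not hold these letters. Capitals mark CTGATTGG.
RT1-Ba: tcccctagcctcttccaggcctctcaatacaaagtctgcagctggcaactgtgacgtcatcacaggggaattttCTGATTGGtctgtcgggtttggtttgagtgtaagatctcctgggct
RT1-Da: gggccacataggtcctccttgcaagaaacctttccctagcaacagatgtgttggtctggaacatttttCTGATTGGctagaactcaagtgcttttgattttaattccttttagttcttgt
The letters began 46 bases before the start in RT1-Ba and 52 bases before it in RT1-Da.

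Marker groups of immune cells were examined beside the class II genes. Of 16 macrophage markers 13 had an interaction above 0, with a median of 0.20, a level of -0.06 to 0.12 in CNS rats, -0.15 to 0.03 in FNS rats, -0.13 to 0.11 in CHS rats and -0.15 to 0.15 in FHS rats, all of which overlapped. Besides Cx3cr1 the smallest p was that of Csf1r, the receptor for macrophage colony-stimulating factor (0.32 ± 0.14), with changes of -0.21 and 0.12, while Mrc1, the mannose receptor, had -0.44 ± 0.25. Ptprc, the pan-leukocyte antigen CD45, had 7.45 to 7.84 in CNS, 7.05 to 7.62 in FNS, 7.21 to 7.47 in CHS and 7.27 to 7.5 in FHS rats (0.31 ± 0.18, and 0.19 without rat 8). The medians of T and NK cell markers (0.04, 16 measured), B and plasma cell markers (0.08, 6 measured) and neutrophil markers (0.09, 9 measured) lay nearer to that of all genes, and the first was -0.01 after quantile normalization. Of these markers 6, 4 and 1 lay above the median brightness, against 14 of the 16 macrophage markers. The median over genes at or below the median brightness was 0.06, so these dim lists do not show whether such cells changed. Whether the class II and macrophage values moved with the number of such cells was not tested.

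The interferon-induced genes had a median interaction of 0.25, above 0 in 19 of 23. On high salt all 23 had higher means with fructose, with a median of 0.30 and 8 at an unadjusted p under 0.05 (9.06% of all genes, either direction), and on normal salt 15 were higher and 8 lower with a median of 0.06. Rats differed widely, with levels of -0.23 to -0.07 in CNS rats, -0.38 to 0.28 in FNS rats, -0.25 to 0.00 in CHS rats and -0.01 to 0.56 in FHS rats. Without rat 15, the FHS animal with the highest level, the median interaction was 0.14. Ifi27, a mitochondrial protein induced by type I interferon, had 10.20 to 10.61 in CHS rats and 10.57 to 11.33 in FHS rats (0.58 ± 0.26, adjusted p = 0.812). Gbp2 and Gbp5, interferon-gamma-induced GTPases, had interactions of 0.45 ± 0.17 and 0.69 ± 0.33, the latter 0.46 without rat 9.

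**Figure D4:**
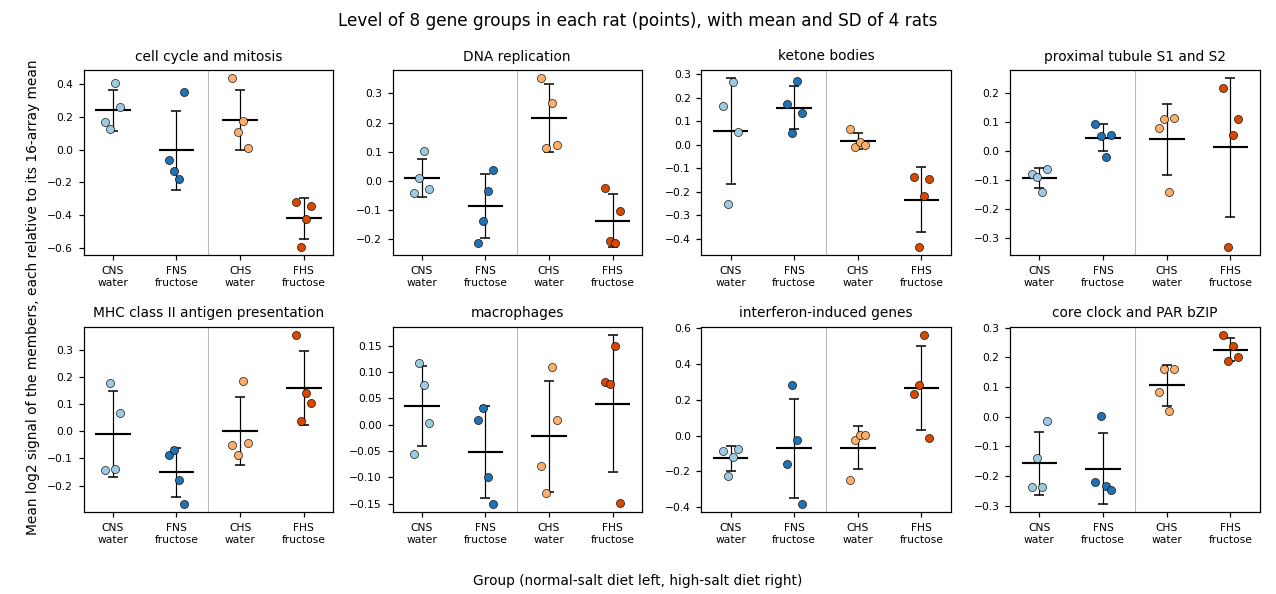
Level of 8 gene groups in each rat (points), the mean over members of the log2 signal relative to each member's mean over the 16 arrays, with the mean and SD of the 4 rats in each group. FHS rats lay below all others for cell cycle genes, below all CHS rats for ketone body and DNA replication genes, and above all others for clock genes, while the macrophage ranges overlapped in all 4 groups.

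The core clock and PAR bZIP genes had a median interaction of 0.17, above 0 in 13 of 17, but members differed in direction. Their level separated the base diets first, with -0.24 to -0.01 in CNS rats, -0.25 to 0.00 in FNS rats, 0.02 to 0.16 in CHS rats and 0.19 to 0.28 in FHS rats, so that all high-salt rats lay above all normal-salt rats and FHS rats above CHS rats. Bhlhe41, the clock repressor DEC2, had 5.67, 5.50, 5.36 and 5.86 in CNS rats, 5.06, 5.22, 4.90 and 4.92 in FNS rats, 5.70, 5.63, 5.92 and 5.77 in CHS rats and 6.08, 5.75, 6.20 and 5.75 in FHS rats. The FNS rats were the lowest of all (interaction 0.76 ± 0.19, limma adjusted p = 0.684). Ciart, a repressor of the CLOCK and BMAL1 dimer, had 4.17 to 4.74 in CNS, 3.97 to 5.24 in FNS, 5.91 to 6.21 in CHS and 6.46 to 7.39 in FHS rats, a change of 0.05 on normal salt and 0.87 on high salt (0.82 ± 0.33, adjusted p = 0.808). Clock itself, the activator of the loop, ran the opposite way, with 10.19 to 10.43 in CHS and 9.88 to 10.20 in FHS rats against 10.28 to 10.71 in CNS and 10.41 to 10.88 in FNS rats (-0.51 ± 0.17). Per1, a period gene, had 6.07, 7.28, 6.19 and 6.30 in CNS rats and 5.73, 6.11, 5.87 and 5.88 in FNS rats. On high salt it was higher, with 7.84 to 8.06 in CHS and 7.88 to 8.25 in FHS rats. Its interaction of 0.58 ± 0.28 was 0.30 without rat 2, the CNS rat at 7.28. Npas2, which can stand in for Clock, had changes of 0.09 and -0.39, an interaction of -0.48 that was -0.30 without rat 4. Between the diets Npas2 differed by -1.49 with water and by -1.97 with fructose. Without rat 4, a CNS animal, the median of the group was 0.08. The study's methods do not give the hour of tissue collection, so its part in these values was not tested.

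Clock proteins are known to act on E boxes, and CACGTG stood in 4 of the 16 clock promoters found (25%) against 7.85% of array promoters. The 120 bases before the start of Ciart (chr2:186112247-186112366, minus strand of GRCr8) and Bhlhe41 (chr4:180569356-180569475, minus strand) are shown as the 2 clock repressors with the widest positive interactions. Capitals mark CACGTG.
Ciart: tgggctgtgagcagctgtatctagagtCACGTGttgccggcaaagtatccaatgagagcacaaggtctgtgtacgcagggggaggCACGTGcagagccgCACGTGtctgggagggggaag
Bhlhe41: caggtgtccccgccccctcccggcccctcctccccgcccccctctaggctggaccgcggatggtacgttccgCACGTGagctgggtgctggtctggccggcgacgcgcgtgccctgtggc
Ciart held the letters 3 times in this stretch and Bhlhe41 once, 48 bases before the start. Per1, also with a positive interaction, held none in its whole window.

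Ketone body genes had interactions below 0 in 8 of 8 measured members, with a median of -0.24 and changes of 0.06 on normal salt and -0.24 on high salt (medians). Their level was -0.25 to 0.27 in CNS rats, 0.05 to 0.27 in FNS rats, -0.01 to 0.07 in CHS rats and -0.44 to -0.14 in FHS rats. Slc16a1, the monocarboxylate transporter MCT1 that carries lactate and ketone bodies, had 10.84, 9.88, 11.10 and 9.87 in CNS rats, 10.76, 10.10, 10.46 and 10.67 in FNS rats, 9.71, 9.45, 9.39 and 9.50 in CHS rats and 9.11, 7.65, 8.96 and 8.83 in FHS rats. The high-salt rats lay below the normal-salt rats, and FHS rats below CHS rats, with rat 14 lowest (interaction -0.95 ± 0.44, limma adjusted p = 0.816, and -0.62 without rat 14). Acat2, a cytosolic thiolase, had 6.65 to 7.15 in CHS and 6.13 to 6.78 in FHS rats (-0.54 ± 0.20), and Oxct1, which activates acetoacetate for oxidation, 11.80 to 12.00 and 11.51 to 11.69 (-0.19 ± 0.13, and -0.13 without rat 2).

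Markers of tubule segments lay on both sides of 0. For S1 and S2 of the proximal tubule 14 of 15 markers had an interaction below 0, with a median of -0.20 and none at an unadjusted p under 0.05. Rat 14 had the lowest level of all (-0.33, against 0.05 to 0.22 in the other FHS rats), and without it the median was -0.07. Slc34a1 had 12.83 to 12.90 in CNS rats, 12.95 to 13.15 in FNS rats, 12.97 to 13.13 in CHS rats and 12.95 to 13.08 in FHS rats (-0.20 ± 0.11), and Cubn, the receptor cubilin, 11.75 to 11.98 in CNS against 12.11 to 12.22 in FNS rats (-0.17 ± 0.14, from -0.26 without rat 11 to -0.11 without rat 9). In both the normal-salt groups did not overlap and the high-salt groups did. The 8 markers of S3 had a median of 0.16, but single rats of a group differed widely. Slc7a13, an amino acid transporter of S3, had 12.74, 9.65, 12.91 and 12.98 in CNS rats and 9.72, 13.05, 12.42 and 12.08 in FHS rats, with an interaction of 1.17 ± 1.25 that ran from 0.65 without rat 9 to 1.97 without rat 2. The S3 median ran from 0.08 without rat 14 to 0.28 without rat 2, and was 0.27, 0.08, 0.09 and 0.24 without rats 7, 8, 9 and 11.

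Of the 10 markers of the distal convoluted and connecting tubule 8 had an interaction below 0, with a median of -0.21. Calb1, calbindin-D28k, had 12.48 to 12.72 in CHS and 12.02 to 12.71 in FHS rats (-0.45 ± 0.21), the opposite direction to S100g, and Slc12a3, the thiazide-sensitive NaCl cotransporter, had changes of 0.20 and -0.09 (-0.28 ± 0.15). Endothelial markers had a median of 0.15, above 0 in 9 of 10, led by Ehd3, an endocytic protein of glomerular endothelium, with 10.04 to 10.27 in CNS, 9.35 to 10.05 in FNS, 9.31 to 9.65 in CHS and 9.41 to 10.07 in FHS rats (0.71 ± 0.23, limma adjusted p = 0.808). Without rat 14 the endothelial median was 0.09, and without rat 5 it was 0.09 too.

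Lysosomal genes had a median of -0.17, below 0 in 16 of 21, and without rat 14 it was -0.08. Ctsd, the protease cathepsin D, had 11.51 to 11.65 in CHS rats and 11.37, 10.90, 11.35 and 11.37 in FHS rats, with 11.21 to 11.34 in CNS and 11.27 to 11.37 in FNS rats (-0.35 ± 0.14). Lipa, the lysosomal acid lipase, had 9.65 to 9.91 in CNS rats and 9.98 to 10.13 in FNS rats, without overlap, and 9.96 to 10.10 and 9.59 to 10.16 on high salt (-0.40 ± 0.16).

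Genes that handle fructose itself, a list looked at because fructose was the treatment and named after its values were seen, had no member at an unadjusted p under 0.05 among 10 measured, with a median interaction of 0.14 that was 0.01 without rat 14. Slc2a5, the fructose transporter GLUT5, had a mean of 8.36 ± 0.65 (SD, n = 4) in CNS, 9.49 ± 1.16 in FNS, 8.29 ± 0.70 in CHS and 9.64 ± 0.78 in FHS rats, changes of 1.13 and 1.35 (interaction 0.21 ± 0.75, SE, limma adjusted p = 0.974). Slc5a10, the sodium-coupled fructose transporter SGLT5, had changes of 0.75 and 1.73 (0.98 ± 0.67, adjusted p = 0.847), and Khk, ketohexokinase, of 0.30 and 0.35 (0.06 ± 0.22, adjusted p = 0.978). For Slc2a5 the standard error was more than 3 times the interaction itself. Gluconeogenesis genes had a median of -0.03 over 17 measured members (0.02 without rat 4), with none at an unadjusted p under 0.05.

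The direction of the interaction also followed the brightness of the rows. When rows were ordered by mean signal and split into 10 equal parts, the median interaction was 0.15 in the dimmest part and -0.07 in the brightest, and after quantile normalization of the deposited values it was 0.04 and -0.02. Without rat 14 it was 0.13 and -0.04. Of the rows at an unadjusted p under 0.05, 65.8% had a positive interaction and 34.2% a negative one as deposited, but 47.2% and 52.8% after quantile normalization, 45.7% and 54.3% with each array's median subtracted, and 48.4% and 51.6% among rows above the median brightness. The medians of the arrays themselves gave an interaction of 0.05. A two-sided permutation of fructose and water within each diet gave p = 0.239 over all 4900 arrangements. Such a shuffle assumes no fructose change on either diet, so it is not an exact test of equal changes.

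**Figure D5:**
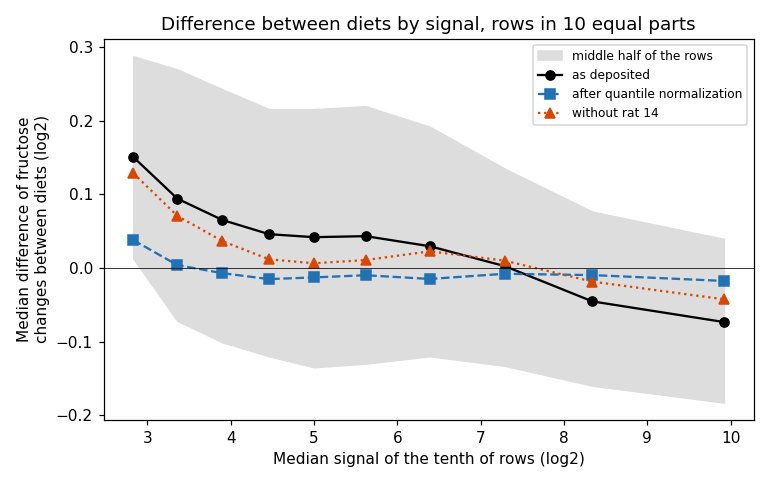
Median interaction (log2) of rows in 10 equal parts by mean signal, as deposited (black), after quantile normalization (blue) and without rat 14 (orange), with the grey band spanning the quartiles of the deposited rows. The black line runs from 0.15 in the dimmest part to -0.07 in the brightest, and the blue line stays between -0.02 and 0.04.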

How the data were processed

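The authors scanned 1 Affymetrix RaGene 2.0 ST array per rat and converted the images with Expression Console by the robust multi-array average method, and the deposited values are log2 signals per transcript cluster, normalized across arrays. The authors' own gene symbols came from an rn5 annotation of the array. Values were used as deposited, with all 16 columns mapped to rats by title. Rows were named from the platform annotation: 18511 rows had 1 symbol, 575 several and 17599 none, and the row of highest mean stood for a gene with several rows (291 genes). A limma 3.58.1 model of 4 group means (R 4.3.3, eBayes without trend) gave each contrast, with Benjamini-Hochberg adjustment over 36685 rows at 0.05. The number of arrays limits the precision. The script was tested on simulated data.

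The named genes were, by rule, the 15 each way of smallest interaction p above the median brightness, the 5 each way without that limit, crossed genes above it, and up to 5 members of smallest p in the 6 highest and 6 lowest of the 52 lists. Symbols starting with LOC, RGD, Olr, Vom, Vmn, AABR, Mir or Snor were left out of the first parts. Of 982 distinct listed genes 121 were not found by symbol and were not analysed here. The comparison, the lists and the rule were chosen with earlier results of these data known. Alternatives were a brightness filter, other scalings and moderation, array weights, 1 row per symbol, and leaving out each rat. Another, leaving out 5087 rows with identifiers below the annotated range, was chosen after seeing the data. Promoter letters are from RefSeq (GRCr8). Tables and plots were made with Python 3.11.15, pandas 2.3.3 and matplotlib 3.10.9.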

Additional observations from a re-analysis of the deposited data

Results flagged for a closer look

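Among the groups of 4 rats of the named genes and described gene groups, 28 of 416 (6.73%) held a rat whose gap to the next was wide for the group's range by Dixon's criterion, where chance gives about 5%. Values are log2 signals, with the median of the other 3 rats of the group after "against".

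In FHS rat 14, Ctsd was 10.9 against 11.37, Dnajb4 7.299 against 7.992, Man2b1 (lysosomal mannosidase) 10.12 against 10.77 and Slc4a4 (the proximal bicarbonate cotransporter) 12.31 against 12.89. In CNS rat 2, Pcna was 9.075 against 9.29, Slc22a24 5.316 against 8.058, Slc7a13 9.654 against 12.91, Slc4a4 12.78 against 12.91 and Slc7a9 10.31 against 10.1, and the level of S3 markers was -0.5533 against 0.3866. In CHS rat 11, Ifi44 was 6.895 against 6.432, RT1-DMa 8.098 against 7.756 and Slc12a3 10.79 against 11.09, the level of S1 and S2 markers was -0.1432 against 0.1089 and that of MHC class II genes 0.1853 against -0.04885.

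The rest were spread over other rats. In FHS rats, Cyp7b1 was 6.693 against 6.317 in rat 15, RT1-Da 10.53 against 9.991 in rat 13 and Ube2c 5.885 against 5.812 in rat 16. In CHS rats, Tek was 8.993 against 8.694 in rat 10, and in rat 9 Zmat4 was 6.378 against 5.924 and the interferon level -0.2475 against 0.0009541. In FNS rats, Lamp2 was 12.3 against 12.48 and Slc4a4 12.84 against 13.02 in rat 7, Tie1 7.796 against 7.896 in rat 5, and Npas2 7.646 against 8.631 and the clock level 0.002696 against -0.2341 in rat 6. In CNS rat 3, Tie1 was 7.734 against 8.065 and the level of distal tubule markers -0.2605 against 0.00141.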

How the results depend on the processing

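No row passed the adjusted threshold under any alternative except 2 that left out a rat. Without rat 11 a row with no symbol did (-0.9823, limma adjusted p = 0.0474) and without rat 16 another (-1.623, 0.0225), so the count ran from 0 to 1. At an unadjusted p under 0.05 the 1470 positive rows became 530 among rows above the median brightness, 964 with array medians subtracted and 634 (with 414 negative) at 1 row per symbol, where fewer rows were tested in the first and last. Leaving out 1 rat gave 1266 to 1817 positive and 617 to 1031 negative rows. The 23 crossed rows became 10 among brighter rows, 14 after quantile normalization and 26 to 55 without 1 rat. The median of class II genes was 0.4836 among brighter rows, and ran from 0.235 to 0.4083 when 1 rat was left out. In the same way the cell cycle median ran from -0.4325 to -0.2384 and the DNA replication one from -0.2508 to -0.1386. Each named gene kept its direction and stayed above the adjusted threshold under the alternatives run for it, 24 for 86 genes and 23 for the 6 that the brightness filter leaves out, and 34 of the 52 list medians, the 12 described included, kept their sign. The named genes and the 12 lists were picked by their values in the same arrays, which favours a kept direction. The S1 and S2 median was -0.13 with array weights, and the endothelial one 0.10 with array medians subtracted. No paired analysis was possible because rat numbers are not shared between groups. With 4 rats per group, small interactions could not be measured firmly, in bright rows as well as in dim ones.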

Other observations

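Podocyte markers had interactions above 0 in 6 of 7 measured members with a median of 0.14, and none at an unadjusted p under 0.05. Endoplasmic reticulum chaperones and stress response genes had the next lowest median after the described groups (-0.14, below 0 in 21 of 24, and -0.09 without rat 14), with a level of 0.11 to 0.31 in CHS rats, above all CNS rats (-0.14 to -0.03). Of the 12 rows with the smallest interaction p, 3 had a gene symbol and 6 had identifiers below the annotated range, so most of the rows at the edge of the comparison are unnamed here.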
